A study of Mus musculus with 6 samples.

Results

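The collagen genes are described here, in stria vascularis of mice with and without Slc26a4. A gene was taken as a collagen gene where its symbol in the platform annotation begins with Col, a number, the letter a and a number, and 42 of the 18193 genes named on the array met this rule, with 82 of the 45037 probe sets tested. They were sorted by the type of collagen their chains form into 7 fibrillar, 9 basement membrane and 8 cartilage genes, 5 genes of type VI, 6 of fibril-associated types, 2 of type VIII, 4 of transmembrane types and Col26a1. Col2a1, Col11a1, Col11a2 and Col27a1, whose chains form fibrils too, were counted with the cartilage genes and not with the fibrillar ones. The symbol rule used no measured value. Col6a6, Col21a1 and Col28a1 were not analysed here.

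Collagens are trimers of chains wound into a triple helix. Fibrillar collagens assemble into the fibers that give connective tissue its tensile strength, type IV collagen forms the sheet of basement membranes, and types II, IX and XI make the thin fibrils of cartilage and of the inner ear, including the tectorial membrane. In stria vascularis the capillaries are wrapped by basement membrane, and the spiral ligament behind it is a connective tissue of fibrocytes held in a fibrillar matrix.

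The study asked how gene expression in stria vascularis differs in a mouse model of Pendred syndrome. The control group was Slc26a4+/+ and the other group Slc26a4-/-, which lacks a complete gene of the anion exchanger pendrin in every cell of the body. The mice are labelled 129S6, were adults of about 5 months and were not perfused, so that blood remained in the capillaries, and stria vascularis was freed by microdissection. Each genotype had 3 Affymetrix mouse 430 2.0 arrays. RNA of 2 animals was pooled for every array and went through 2 rounds of amplification. P-values therefore measure the spread between pools, and the number of arrays limits the precision.

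Values are signals on a linear scale, already scaled for each array, with means of 666 to 725.3. The background of an array, read from 44 probe sets of olfactory receptors as their 95th percentile, lay between 187 and 319. It was 200, 269 and 319 on the Slc26a4+/+ arrays against 187, 204 and 214 on the Slc26a4-/- arrays. Whether a signal was above background was read against its own array, and so depends on this difference. All 11 markers of strial cells, such as the K+ channel genes Kcnq1 and Kcnj10, were above background. The Gapdh ratio, 3′ over 5′ probe set, a measure of RNA integrity, was 2.25, 7.19 and 10.5 on the Slc26a4+/+ arrays against 3.70, 3.80 and 3.34 on the Slc26a4-/- arrays, so that replicates 2 and 3 of Slc26a4+/+ stood apart. The Y-linked gene Eif2s3y had signals of 640 to 1541 in Slc26a4+/+ against 3.1 to 3.6 in Slc26a4-/-, and Xist, made from the inactive X chromosome, had 771 to 3358 and 5530 to 5863. Sex and genotype cannot be told apart on these arrays. Slc26a4 itself had signals of 793 to 1354 in Slc26a4+/+ against 520.2 to 717 in Slc26a4-/-. The sources used here do not say whether its probes lie inside the deletion, and its signals are no check of the labels.

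Of the 42 collagen genes 4 were higher in Slc26a4-/- and 0 were lower, by an adjusted p under 0.05 from limma, which is the meaning of rose, fell and passed throughout. The 4 genes were Col1a2 and Col3a1, which encode fibrillar chains, Col9a2 of cartilage collagen IX, and Col8a1 of the network collagen VIII. They are 9.52% of the collagen genes, against 1.88% of all genes that were higher. Among all genes 0.803% were lower. Before adjustment 11 collagen genes had p under 0.05 and were higher (26.2%, against 8.48% of all genes), and 0 were lower (against 6.42%). The signals of the genotypes did not overlap in 13 collagen genes. Of these 12 were higher in Slc26a4-/- (28.6%, against 11.2% of all genes) and 1, Col11a1, was lower (2.38%, against 9.73%). Col24a1 and Col8a2, among the 12, were below background on all 6 arrays, and Col24a1 was also among the 11. A mean ratio past 1.3 for a gene's probe sets, the threshold of the study, gave 12 higher (against 16% of all genes) and 4 lower (against 21.7%). Col3a1, Col8a1 and Col9a2 were among the 12, and Col1a2 was not, with a mean ratio of 0.30 on the log2 scale. The study also asked for Present calls, which were not used here, and 7 of the 12 and 1 of the 4 were above background on at least 2 arrays of a genotype. The methods' t-test is a paired one, run here with arrays paired by replicate number although the labels give no pairing beyond the number. Before adjustment it gave 5 higher (against 5.53%) and 1 lower (against 5.23%). Col1a2 and Col8a1 were among the 5, and Col3a1 and Col9a2 were not. The median log2 fold change, Slc26a4-/- over Slc26a4+/+, was 0.24 over the collagen genes, or 0.20 with Col9a2 and Col14a1 at the lower bounds given below for them, and -0.03 over all genes.

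Not all collagen genes gave a signal that could be read. On at least 2 arrays of a genotype 26 of the 42 were above background (61.9%, against 58.4% of all genes), 17 were above it on all 6 arrays and 12 were below it on all 6. Summed over the 42 genes, the signal was 16280 to 19845 in Slc26a4+/+ against 19893 to 21043 in Slc26a4-/-, ranges that do not overlap. In a dissected tissue, more or fewer cells of a type and more or less RNA per cell cannot be told apart. By qRT-PCR on perfused mice the study found a small carry-over between stria vascularis and spiral ligament, larger in Slc26a4-/- than in Slc26a4+/- mice. The part of carry-over in the signals of these arrays was not tested.

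**Figure D1:**
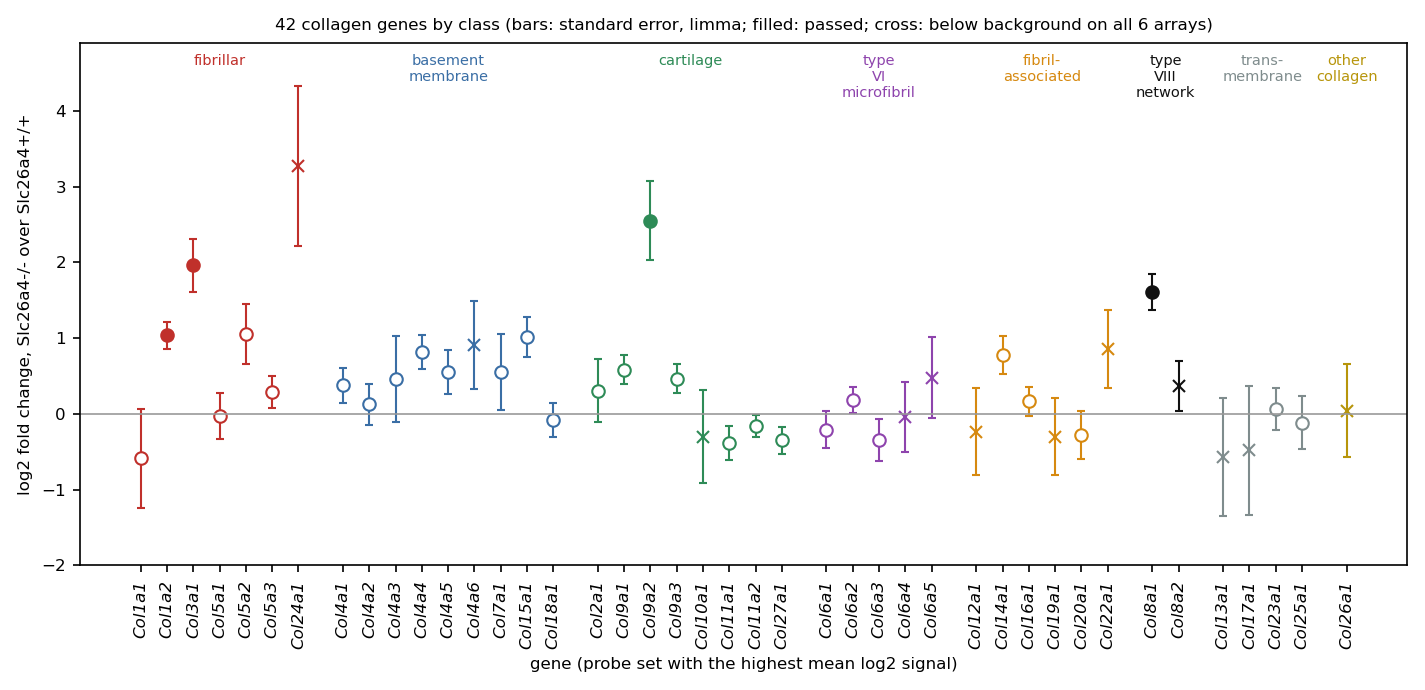
Log2 fold change (y axis, Slc26a4-/- over Slc26a4+/+) of the 42 collagen genes (x axis), grouped by collagen class, with bars for the standard error from limma on 6 arrays. The 4 filled points, Col1a2, Col3a1, Col9a2 and Col8a1, passed an adjusted p of 0.05. Crosses mark the 12 genes below background on all 6 arrays, whose fitted values are not fold changes that can be read. Col9a2 and Col14a1 are drawn at fitted values that rest on Slc26a4+/+ signals below background.

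Of the 7 fibrillar collagen genes 2 rose and 0 fell in Slc26a4-/-, 6 were above background on at least 2 arrays of a genotype, and the median log2 fold change was 1.04, or 0.66 without Col24a1, which was below background on all 6 arrays. Col1a2 encodes the α2 chain of type I collagen, the main collagen of bone, tendon and skin. Its signals were 336, 291 and 389 on the Slc26a4+/+ arrays against 698, 674 and 699 on the Slc26a4-/- arrays. The Slc26a4-/- arrays lay close together and all above the Slc26a4+/+ arrays. Mean signals were 339 ± 49.1 and 690 ± 13.7 (SD, n = 3 arrays each), and the fold change was 2.05 (log2 1.04, SE 0.18, adjusted p = 0.0213 from limma). Col3a1 encodes the chain of type III collagen, found with type I in elastic and vascular tissues, and had signals of 255, 94.6 and 124 in Slc26a4+/+ against 506, 505 and 689 in Slc26a4-/-. It was above background on 1 of 3 Slc26a4+/+ arrays and on 3 of 3 Slc26a4-/- arrays. Mean signals were 158 ± 85.4 and 567 ± 106 (SD, n = 3 arrays each), and the fitted fold change was 3.89 (log2 1.96, SE 0.35, adjusted p = 0.0247 from limma). With every signal under its array's background raised to that background the fold change was 2.00 (log2 1.00).

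Both calls depended on single arrays. Col1a2 did not pass without Slc26a4+/+ replicate 2 (adjusted p = 0.0813 from limma) or without any 1 of the Slc26a4-/- arrays (0.123 to 0.148). Col3a1 passed only where Slc26a4+/+ replicate 1 was the array left out, with adjusted p from limma of 0.0612 to 0.149 without any 1 of the other arrays. With both Slc26a4+/+ arrays of high Gapdh ratio left out, a setting chosen after seeing the data, Col1a2 had a log2 fold change of 1.04 (adjusted p = 0.0244) and Col3a1 of 1.14 (adjusted p = 0.0623), both from limma. With the Xist signal as a covariate, which does not overlap between the genotypes, Col1a2 had an adjusted p of 0.352 and Col3a1 of 0.159 from limma. With this covariate 0.077% of all genes were higher and 0% lower, against 1.88% and 0.803% without it.

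The partner of Col1a2 in type I collagen, Col1a1, encodes the α1 chain and did not pass. Its signals were 426, 80.5 and 503 in Slc26a4+/+ against 266, 94.1 and 203 in Slc26a4-/-, an overlap over most of their range, and the change was -0.59 on the log2 scale (SE 0.66, adjusted p = 0.794 from limma). Col1a1 was above background on 2 of 3 and 1 of 3 arrays. Whether the changes of Col1a1 and Col1a2 differ was not tested.

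The remaining fibrillar genes did not pass either. Col5a2, a chain of type V collagen that sits inside type I fibrils, had signals of 264, 86.6 and 214 in Slc26a4+/+ against 313, 309 and 454 in Slc26a4-/-, which did not overlap, and the log2 change was 1.05 (SE 0.40, adjusted p = 0.323 from limma). It was above background on 1 of 3 Slc26a4+/+ arrays, and the log2 change was 0.32 with signals raised to background. Col5a1 and Col5a3, the other type V chains, had log2 fold changes of -0.03 and 0.29 with overlapping signals. A further probe set of Col5a1 was above background on 1 of 3 Slc26a4+/+ and 0 of 3 Slc26a4-/- arrays. It had 201, 198 and 317 against 180, 103 and 154, without overlap (fitted log2 change -0.71, adjusted p = 0.444 from limma). Col24a1, a minor fibrillar collagen, was below background on all 6 arrays, with signals of 0.7 to 17.6 and 32.7 to 85.6 (adjusted p = 0.220 from limma), and no fold is given for it.

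Markers of cells that make fibrillar collagen were read beside these genes, and their part in the result was not tested. Of 7 markers of spiral ligament fibrocytes 3 rose, Otos, Dcn and Ucma, and 4 did not pass, Coch and Pou3f4 among them. Their summed signal was 21333 to 24255 in Slc26a4+/+ against 29112 to 31046 in Slc26a4-/-. Dcn encodes decorin, a small proteoglycan that coats type I fibrils, and had signals of 880 to 1263 against 2745 to 3475. Of 8 fibroblast markers 0 rose and 0 fell, with overlapping sums of 3131 to 4234 and 3075 to 3682. Of these markers Dpt, Pi16, Mfap5, Thy1 and Clec3b were below background on all 6 arrays. Of 6 osteoblast and osteocyte markers 0 rose and 0 fell, with sums of 1183 to 2034 and 802 to 1097, lower in Slc26a4-/- without overlap. Ibsp, Dmp1, Phex and Mepe were below background on all 6 arrays. Alpl had 713 to 1242 against 422.5 to 639, without overlap, and a log2 change of -0.74 (adjusted p = 0.226 from limma). Sp7 overlapped, with -0.54 (adjusted p = 0.555 from limma).

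**Figure D2:**
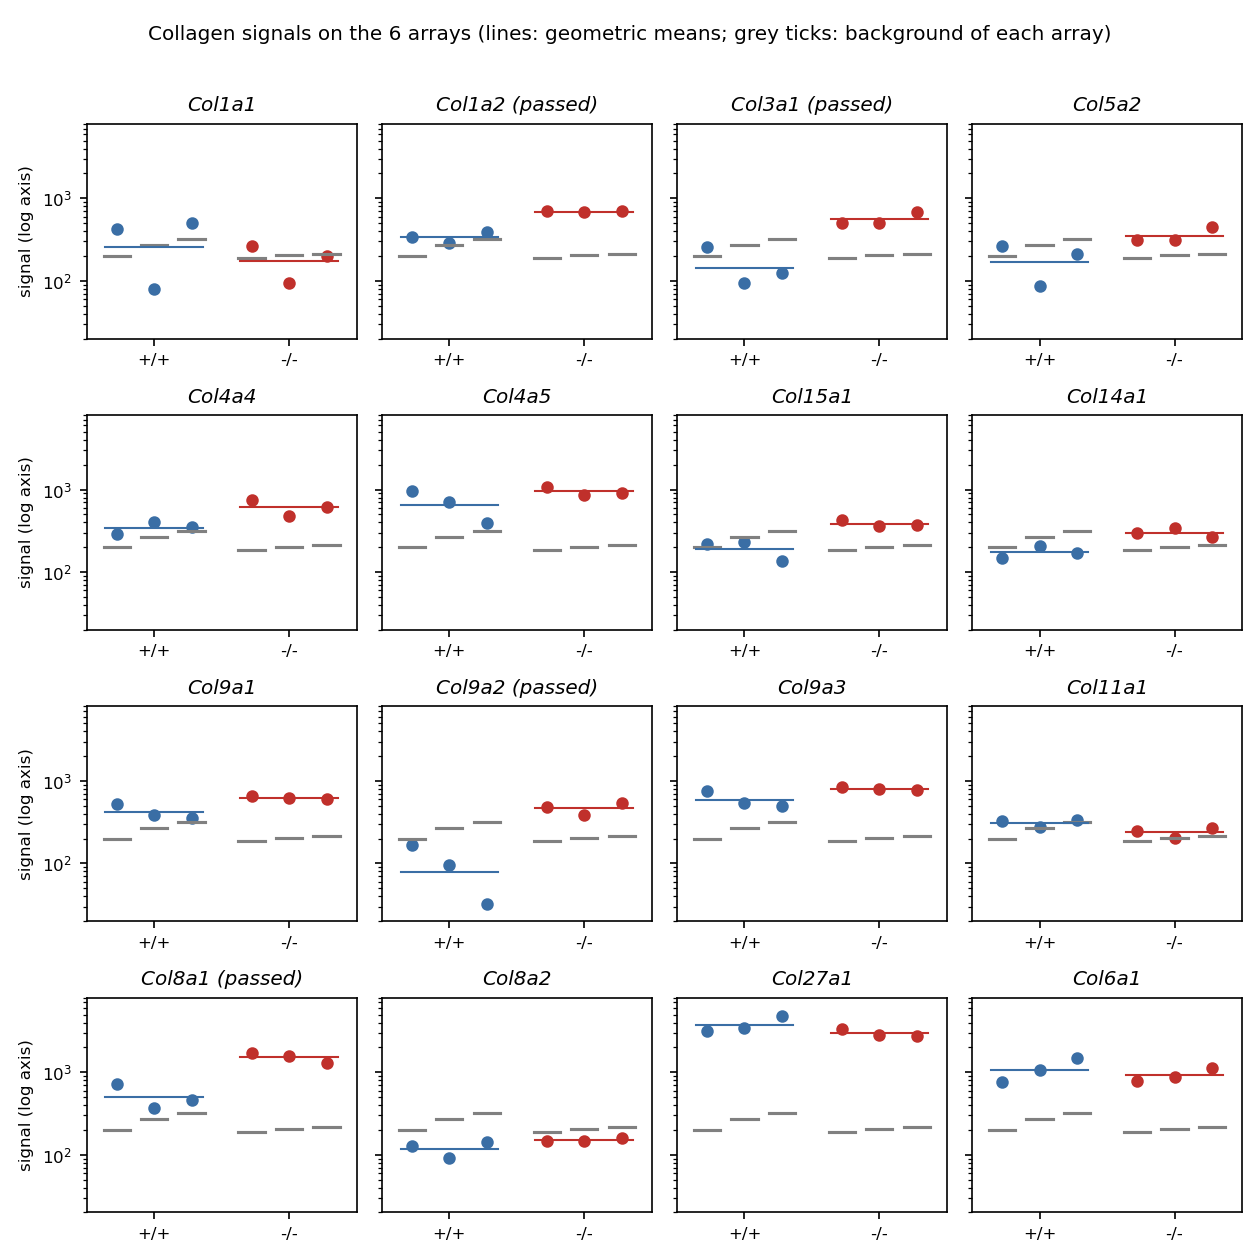
Signal on each array (points, logarithmic y axis) of 16 collagen genes in Slc26a4+/+ (blue) and Slc26a4-/- (red), with the geometric mean of each genotype as a line and the background of each array as a grey tick. All 3 Slc26a4-/- points lie above all 3 Slc26a4+/+ points for Col1a2, Col3a1, Col9a2 and Col8a1, which passed. The same holds for Col5a2, Col4a4, Col15a1, Col14a1, Col9a1, Col9a3 and Col8a2, which did not pass. For Col11a1 all Slc26a4-/- points lie below, and the points of Col1a1, Col4a5, Col27a1 and Col6a1 overlap.

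The 250 bases before the start of the 4 genes that rose are printed to show the promoter sequence of these genes, in the order fibrillar, network and cartilage. They come from RefSeq on GRCm38.p6, where 33 of the 42 collagen genes matched, with 36 starts, and read 5′ to 3′ along the gene.
Col1a2, chr6:4505368-4505617, forward strand: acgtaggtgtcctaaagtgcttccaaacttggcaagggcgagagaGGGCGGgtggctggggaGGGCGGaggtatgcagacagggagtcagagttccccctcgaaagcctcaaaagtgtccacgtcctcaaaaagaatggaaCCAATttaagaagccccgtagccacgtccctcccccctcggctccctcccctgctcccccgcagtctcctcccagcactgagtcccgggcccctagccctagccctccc
Col3a1, chr1:45311288-45311537, forward strand: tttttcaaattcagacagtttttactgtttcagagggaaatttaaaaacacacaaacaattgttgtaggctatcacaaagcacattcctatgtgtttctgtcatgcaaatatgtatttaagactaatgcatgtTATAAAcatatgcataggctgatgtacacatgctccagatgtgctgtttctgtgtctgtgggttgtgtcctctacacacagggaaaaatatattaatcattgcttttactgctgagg
Col8a1, chr16:57754738-57754987, reverse strand: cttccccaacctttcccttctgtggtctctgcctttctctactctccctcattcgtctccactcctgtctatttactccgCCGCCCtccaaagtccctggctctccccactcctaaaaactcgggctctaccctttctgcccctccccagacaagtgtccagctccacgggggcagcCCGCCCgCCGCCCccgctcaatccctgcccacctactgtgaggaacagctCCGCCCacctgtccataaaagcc
Col9a2, chr4:121039316-121039565, forward strand: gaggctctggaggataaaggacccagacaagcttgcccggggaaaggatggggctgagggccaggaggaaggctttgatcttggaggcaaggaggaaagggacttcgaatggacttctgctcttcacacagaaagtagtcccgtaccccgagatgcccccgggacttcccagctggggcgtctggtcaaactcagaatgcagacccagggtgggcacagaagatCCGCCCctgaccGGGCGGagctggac
Capitals mark matches on either strand to 3 short motifs: the TATA box, searched as TATAAA, the CCAAT box, searched by these letters, and the GC box, searched as GGGCGG. No match overlapped another.

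The 4 windows did not share one set of letters. Col1a2 held CCAAT at -109 and GGGCGG at -205 and -188, counted from the start of the gene. Col3a1 held TATAAA at -117 and neither of the other motifs, Col8a1 held GGGCGG at 4 places on the reverse strand, and Col9a2 held it at 2 places. Among all 32851 RefSeq promoters 12.4% held TATAAA, 33.8% CCAAT and 32.7% GGGCGG, and over the 36 collagen starts the shares were 13.9%, 36.1% and 58.3%. A match describes letters and not a bound site.

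Of the 9 basement membrane collagen genes 0 rose and 0 fell, 2 had an unadjusted p under 0.05, both higher in Slc26a4-/-, and 6 were above background on at least 2 arrays of a genotype. The median log2 fold change was 0.55, or 0.47 over the 6 genes above background. Of the 9 estimates 8 were positive, among them those of Col4a3, Col4a6 and Col7a1, which were above background on at most 1 array. Col15a1 encodes a collagen that ties basement membranes to the fibrils beside them. It had signals of 220.1, 230.0 and 136 in Slc26a4+/+ against 427, 364 and 368 in Slc26a4-/-, which did not overlap (log2 fold change 1.02, SE 0.26, adjusted p = 0.112 from limma). It was above background on 1 of 3 Slc26a4+/+ arrays, and the log2 change was 0.53 with signals raised to background. Col4a4 encodes a chain of the α3α4α5 network of type IV collagen, known from the glomerulus and the cochlea, and had 289, 410 and 349 against 752, 479 and 623. These signals did not overlap, and the change was 0.81 on the log2 scale (SE 0.23, adjusted p = 0.139 from limma). A further probe set of Col4a4 that was above background had 502, 301.5 and 107 against 585, 485 and 412, which overlap (log2 change 0.95, adjusted p = 0.477 from limma). With all 3 probe sets averaged, 1 of them below background on all 6 arrays, the log2 change of Col4a4 was 0.05 (adjusted p = 0.971 from limma).

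The other chains of that network had signals that overlapped between the genotypes. For Col4a5 these were 965, 717 and 392 in Slc26a4+/+ against 1082, 866 and 918 in Slc26a4-/-, and its log2 fold change of 0.56 (SE 0.29, adjusted p = 0.509 from limma) was -0.021 without both Slc26a4+/+ arrays of high Gapdh ratio. Col4a3 was above background on 1 of the 6 arrays. The chains of the general type IV network, Col4a1 and Col4a2, had overlapping signals and log2 fold changes of 0.38 (adjusted p = 0.592) and 0.12 (adjusted p = 0.902) from limma. A further probe set of Col4a1, above background on all 6 arrays, also overlapped, with a log2 change of -0.03 (adjusted p = 0.982 from limma). Col18a1, the source of endostatin, had -0.08 (adjusted p = 0.925 from limma). Col4a6 was below background on all 6 arrays, and Col7a1, of the anchoring fibrils of skin, was above it on 1.

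Of the 8 cartilage collagen genes 1 rose and 0 fell, 7 were above background on at least 2 arrays of a genotype, and the median log2 fold change was 0.07 with 4 estimates of each sign, or 0.31 without Col10a1 and with Col9a2 at its lower bound. By the probe set that stands for each gene, the genotypes did not overlap in 3 genes higher in Slc26a4-/-, all of type IX collagen, and in 1 gene lower there, Col11a1. Type IX collagen decorates the surface of type II fibrils and is a trimer of the chains of Col9a1, Col9a2 and Col9a3.

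Col9a2 had signals of 168, 95.6 and 31.8 in Slc26a4+/+, below background on all 3 arrays, and of 484, 391 and 539 in Slc26a4-/-, above it on all 3. It was at least 1.81-fold higher in Slc26a4-/-, taken against the background of the Slc26a4+/+ arrays. Mean signals were 98.3 ± 67.9 and 471 ± 75.05 (SD, n = 3 arrays each). The adjusted p of 0.0433 from limma belongs to a fitted log2 change of 2.55, which rests on the Slc26a4+/+ signals below background. Col9a2 did not pass without Slc26a4+/+ replicate 2 (adjusted p = 0.118 from limma) or without any 1 of the Slc26a4-/- arrays (0.132 to 0.200). Nor did it pass where arrays were centred on their medians (adjusted p = 0.125 from limma) or 75th percentiles (0.0517), or with signals under 16 or 64 raised to these values. Of the other type IX chains, Col9a1 had 521, 389 and 358 against 656, 615 and 607, with a log2 change of 0.58 (SE 0.19, adjusted p = 0.233 from limma). Col9a3 had 757, 535 and 493 against 834, 799 and 786, and 0.46 (SE 0.19, adjusted p = 0.368 from limma). A further probe set of each of these genes was above background on all 6 arrays and overlapped between the genotypes. That of Col9a1 had 284, 430 and 473 in Slc26a4+/+ against 322, 415 and 385 in Slc26a4-/- (log2 change -0.06, adjusted p = 0.958 from limma), and that of Col9a3 had 539, 380.4 and 468 against 628, 663 and 512 (0.38, adjusted p = 0.505). Averaged over probe sets, the log2 change was 0.26 for Col9a1 and 0.46 for Col9a3. Without both Slc26a4+/+ arrays of high Gapdh ratio Col9a2 passed (adjusted p = 0.0323 from limma), while the log2 change of Col9a1 was 0.26 (0.472) and that of Col9a3 was 0.09 (0.812). With the Xist covariate Col9a2 did not pass (0.641).

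No gene of types II, X, XI or XXVII passed. Col2a1, whose chain forms the core of cartilage fibrils, had 122, 181 and 327 in Slc26a4+/+ against 158, 352 and 244 in Slc26a4-/- (log2 fold change 0.31, SE 0.41, adjusted p = 0.835 from limma). Col11a1 had 329, 275 and 336 against 250, 205 and 266, without overlap (log2 fold change -0.39, SE 0.23, adjusted p = 0.572 from limma). Its other probe set was above background on 1 of 3 Slc26a4+/+ and 0 of 3 Slc26a4-/- arrays. The signals there were 214, 47.9 and 41.9 against 109, 104.5 and 149, which overlap (fitted log2 change 0.66, adjusted p = 0.745 from limma). Col11a2, the partner of Col11a1, overlapped between the genotypes, with -0.16 (adjusted p = 0.728 from limma). Col27a1, a fibril collagen of growing cartilage, had 3160, 3466 and 4859 against 3305, 2828 and 2769 (log2 fold change -0.35, SE 0.18, adjusted p = 0.4995 from limma). Col10a1, which marks hypertrophic chondrocytes, was below background on all 6 arrays. Summed over the class, the signal was 6510 to 8124 in Slc26a4+/+ against 6514 to 7094 in Slc26a4-/-, which overlap.

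Of 9 chondrocyte markers 2 rose, Chad and Cnmd, with summed signals of 2462 to 3719 in Slc26a4+/+ against 15534 to 16039 in Slc26a4-/-. Cnmd, the gene of chondromodulin, had 866 to 1806 against 12779 to 13157. Acan, the gene of aggrecan, and Comp, Matn1, Matn3, Hapln1 and Snorc were below background on all 6 arrays. The remaining marker, the transcription factor gene Sox9, was above it on all 6, with overlapping signals of 696 to 1337 against 1246 to 1667 (log2 change 0.51, adjusted p = 0.439 from limma). The part of such cells in the type IX signals was not tested.

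The smallest adjusted p of all collagen genes was that of Col8a1, a chain of the short-chain collagen VIII that is made by endothelium and smooth muscle of vessels and by the cornea. Its signals were 720, 366 and 459 in Slc26a4+/+ against 1686, 1563 and 1310 in Slc26a4-/-, with no overlap. Mean signals were 515 ± 184 and 1520 ± 192 (SD, n = 3 arrays each), a fold change of 3.06 (log2 1.61, SE 0.24, adjusted p = 0.00959 from limma). It did not pass without Slc26a4-/- replicate 1 (adjusted p = 0.0663 from limma) or replicate 2 (0.0562), and it passed without any 1 of the other arrays. With both Slc26a4+/+ arrays of high Gapdh ratio left out its log2 fold change was 1.07 (adjusted p = 0.0286 from limma), and with the Xist covariate 2.40 (0.0870). Col8a2, the other type VIII chain, was below background on all 6 arrays. No vessel marker passed in limma: the sums of 7 endothelial markers were 2541 to 3495 and 3691 to 4205, with 1 marker higher before adjustment, and those of 7 markers of pericytes and smooth muscle 5318 to 9018 and 8049 to 9955, with 3 higher and 1 lower. Their part in the Col8a1 signal was not tested.

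None of the 5 type VI genes, 6 fibril-associated genes, 4 transmembrane genes or Col26a1 passed in limma, and 1 of them, Col14a1, had an unadjusted p under 0.05. Type VI collagen forms the beaded microfibrils around cells. Col6a1, Col6a2 and Col6a3 were above background on all 6 arrays, with overlapping signals and log2 fold changes of -0.21, 0.18 and -0.35 (adjusted p from limma of 0.691 to 0.803). Col6a4 and Col6a5 were below background on all 6. Of the fibril-associated genes, Col14a1, which binds the surface of type I fibrils, had 150, 210.1 and 172 in Slc26a4+/+, below background on all 3 arrays, and 299, 339 and 267 in Slc26a4-/-, above it on all 3. That is at least 1.16-fold higher without passing (adjusted p = 0.223 from limma). Col16a1 had 554 to 821 and 712 to 901, and Col20a1 217 to 292 and 139 to 289.7, both overlapping. Col12a1, Col19a1, Col22a1, Col13a1, Col17a1 and Col26a1 were below background on all 6 arrays, and Col23a1 and Col25a1 were above it on 1 array each.

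Several collagen genes are read by more than 1 probe set, and these did not always give the same result. Of the 42 genes 27 had several probe sets, with at most 4. Of the 82 probe sets 4 rose and 0 fell, against 1.19% and 0.54% of all probe sets, and these were the ones that stand for the genes above. A further probe set of Col8a1 that was above background had signals of 271, 301 and 412 in Slc26a4+/+ against 508, 480 and 432 in Slc26a4-/-, without overlap, and its log2 change was 0.55 (SE 0.22, adjusted p = 0.343 from limma). Further probe sets of Col4a1, Col4a4, Col5a1, Col9a1, Col9a3 and Col11a1 are given above. The remaining probe set of Col8a1 and the other ones of Col1a2 and Col3a1 were below background on all 6 arrays. When all probe sets of a gene were averaged, 1 collagen gene passed, Col9a2, which has 1 probe set. Averaged in this way Col1a2 had a log2 fold change of 0.60 (adjusted p = 0.726), Col3a1 of 1.22 (0.0643) and Col8a1 of 0.98 (0.0791), all from limma.

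**Figure D3:**
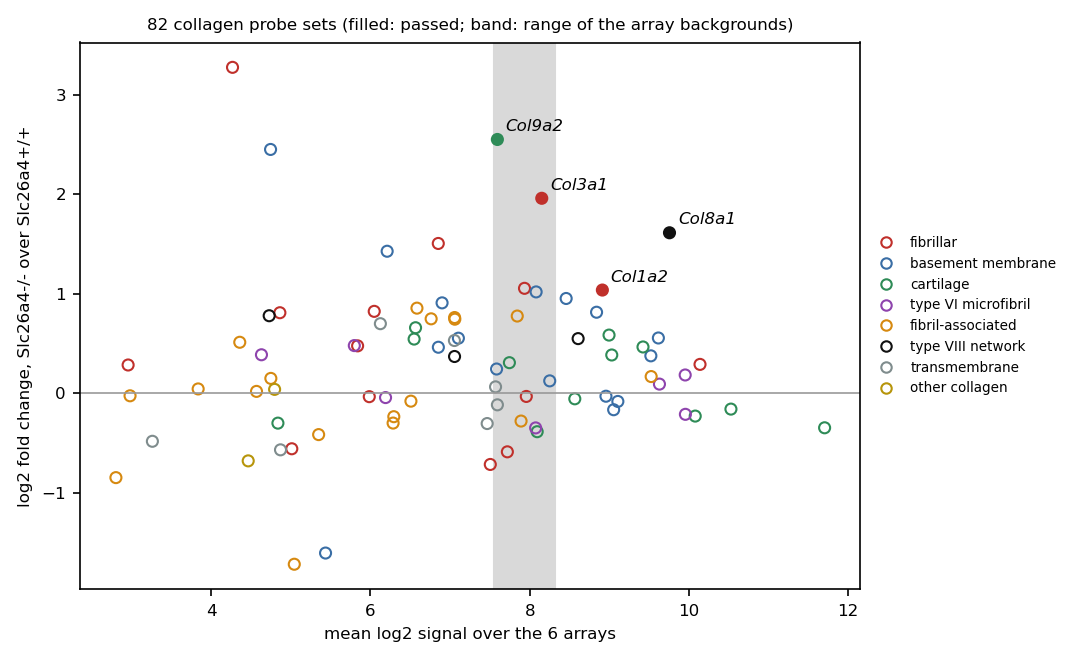
Log2 fold change (y axis, Slc26a4-/- over Slc26a4+/+) against the mean log2 signal over 6 arrays (x axis) for the 82 collagen probe sets, coloured by class, with the range of the array backgrounds, 187 to 319, as a grey band. The 4 filled points are the probe sets that passed, and the estimates scatter most on the left of the band, where signals are below background. Col9a2 is drawn at its fitted value, which is above its lower bound.

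Genes whose products make, trim and bind collagen were measured on the same arrays. Of 19 genes of collagen folding and modification 1 rose and 0 fell, with a median log2 fold change of 0.32 against -0.03 over all genes. The gene was P3h2, a prolyl 3-hydroxylase that acts on type IV and other collagens, with signals of 355, 408 and 353 in Slc26a4+/+ against 921, 687 and 1107 in Slc26a4-/- (log2 fold change 1.26, SE 0.21, adjusted p = 0.0153 from limma). Crtap, the cartilage-associated protein of the prolyl 3-hydroxylase complex, had 1196, 1073 and 796 against 1578, 1717 and 1698 (log2 fold change 0.72, SE 0.17, adjusted p = 0.0801 from limma). Neither gene overlapped between the genotypes. Plod2, a lysyl hydroxylase, was the one gene of this list lower before adjustment, with a log2 fold change of -0.49 (adjusted p = 0.286 from limma). Serpinh1, the collagen chaperone HSP47, overlapped, with a log2 fold change of 0.32 (adjusted p = 0.570 from limma).

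Of 10 genes of procollagen cleavage and cross-linking 1 rose and 0 fell, with a median log2 fold change of 0.33, or 0.16 with Lox at its lower bound. Pcolce enhances the removal of the C-terminal propeptide from fibrillar procollagens and had signals of 1845, 2175 and 3121 in Slc26a4+/+ against 6338, 6450.2 and 5901 in Slc26a4-/-. All Slc26a4-/- signals were above all Slc26a4+/+ signals, the mean signals were 2380 ± 662 and 6230 ± 290 (SD, n = 3 arrays each), and the change was 1.42 on the log2 scale (SE 0.19, adjusted p = 0.00529 from limma). Pcolce passed without any 1 array, and P3h2 did not pass without Slc26a4+/+ replicate 2 or Slc26a4-/- replicate 1 or 3. Neither passed with signals under 16 or 64 raised to these values, without the trend of the spread on the signal or with the Xist covariate, and P3h2 did not pass without both Slc26a4+/+ arrays of high Gapdh ratio. Bmp1, the protease that Pcolce enhances, had overlapping signals and a log2 fold change of -0.12 (adjusted p = 0.899 from limma). The cross-linking enzyme gene Lox was above background on 0 of 3 Slc26a4+/+ and 3 of 3 Slc26a4-/- arrays, at least 1.03-fold higher without passing (adjusted p = 0.288 from limma). Sparc, whose product binds collagen, had a log2 fold change of 0.45 (adjusted p = 0.131 from limma).

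Of 9 genes of collagen receptors 0 rose and 0 fell. With no adjustment 2 had p under 0.05 upward and 1 downward. Mrc2, which takes collagen into cells for breakdown, had signals of 485, 446 and 518 in Slc26a4+/+ against 801, 731 and 959 in Slc26a4-/-, without overlap (log2 fold change 0.78, SE 0.17, adjusted p = 0.0611 from limma). The discoidin domain receptor gene Ddr1 had 0.38 (adjusted p = 0.318) and the integrin gene Itga2 -0.59 (adjusted p = 0.389) on the log2 scale, both from limma.

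**Figure D4:**
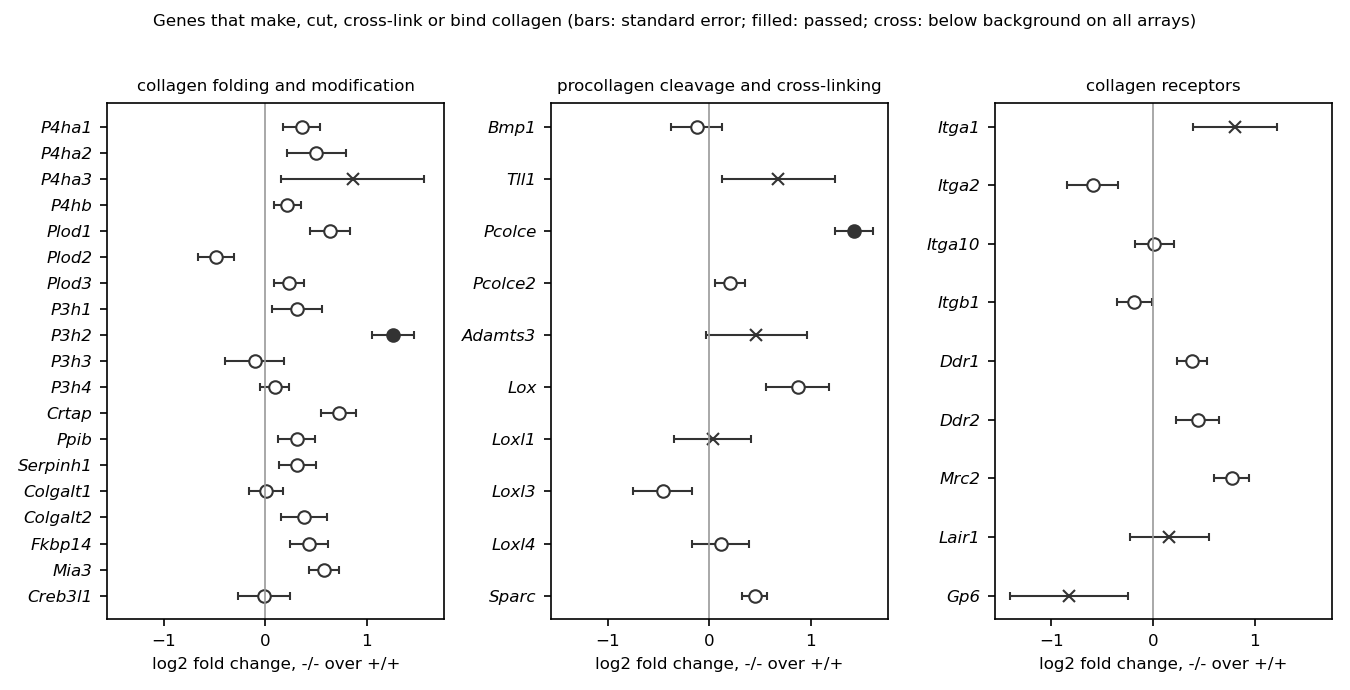
Log2 fold change (x axis, Slc26a4-/- over Slc26a4+/+) of 19 genes of collagen folding and modification, 10 of procollagen cleavage and cross-linking and 9 of collagen receptors, with bars for the standard error from limma on 6 arrays and crosses for genes below background on all arrays. P3h2 and Pcolce, filled, passed an adjusted p of 0.05, and most other estimates lie right of 0. Lox is drawn at its fitted value, which is above its lower bound.

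Markers of macrophages and of strial cells were read on the same arrays. Of 8 macrophage markers 6 rose and 0 fell, and their summed signal was 5398 to 7634 in Slc26a4+/+ against 31698 to 33447 in Slc26a4-/-. Of the 11 strial markers 0 rose and 1, Kcne1, fell, with sums of 108412 to 135150 and 100650 to 102842, and of 3 Schwann cell markers 0 passed. The part of these cells in the collagen result was not tested.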

How the data were processed

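RNA of stria vascularis was measured on 6 arrays, 3 per genotype. The deposited table holds the intensity of each probe set on each array, made by the authors with GCOS, which the submitters' processing notes name (version not given in the sources used here). Genotype and replicate number come from the labels, and age, pooling and amplification come from the methods. Of 45101 probe sets 64 controls were left out, and 34945 had 1 gene symbol, 932 several and 9160 none. Where a gene had several probe sets, that of highest mean log2 signal stood for it. All 42 collagen symbols matched the gene table.

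Signals under 1 (172 values) were raised to 1. The genotypes were compared on the log2 scale by limma 3.58.1 (lmFit, eBayes with trend) in R 4.3.3, without further normalization, with two-sided p-values and Benjamini-Hochberg adjustment across the whole table. The script was tested on simulated data. Figures were drawn with matplotlib 3.10.9. A lower bound was given to genes below background on all Slc26a4+/+ arrays and above it on any Slc26a4-/- array. It was taken against the mean log2 background of the Slc26a4+/+ arrays and dropped where it was under 1. No bound was made in the other direction.

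The collagen classes, pathway lists, marker lists, tests and alternatives were chosen with earlier results of these data known. Named were genes that passed, the 3 smallest p-values of the fibrillar, basement membrane and cartilage classes, the smallest of every other class, partner chains of genes that passed, and, of the processing and receptor lists, those that passed and the smallest p-value of each list. All other genes given with values were chosen after these were seen.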

Additional observations from a re-analysis of the deposited data

How the results depend on the processing

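The 4 collagen genes that rose kept their direction, and their calls changed with the processing. The log2 fold change was positive in all of up to 22 settings. Col1a2 met the threshold of the setting in 13, Col3a1 in 8, Col8a1 in 14 and Col9a2 in 8 of 21. These settings hold the study's ratio and the methods' t-test, unadjusted and adjusted, beside limma. The count of 4 higher collagen genes was 1 with signals under 16 or 64 raised to these values, 2 with each array centred on its median, 0 without the trend of the spread on the signal, 8 with array weights, 1 with the mean of all probe sets, 12 by the study's ratio above 1.3 without its Present calls (against 16% of all genes), 0 by the methods' t-test, paired by replicate number, after Benjamini-Hochberg (5 unadjusted, against 5.53%) and 0 when Xist was a covariate. Limma with the trend gave 342 higher and 146 lower genes in all, against 56 and 10 without it and 1265 and 910 with array weights. Among all genes the adjusted t-test gave 0 higher and 0 lower, and limma with the Xist covariate 14 and 0. The count of 0 lower was 1 by the unadjusted t-test and 4 by the ratio.

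For the fibrillar genes the count of 2 was 1 with either raised lowest signal, with median centring, by the unadjusted t-test and without both Slc26a4+/+ arrays of high Gapdh ratio, and 0 without the trend, with the mean of all probe sets, by the adjusted t-test and with the Xist covariate. For the basement membrane genes the count of 0 was 1 with array weights, by the unadjusted t-test and without both of those arrays, where the gene was Col4a6, and 3 by the ratio. For the cartilage genes the count of 1 was 0 with either raised lowest signal, either centring, quantile normalization, no trend, a mean signal of at least 300, the adjusted t-test and the Xist covariate, 3 with array weights and by the ratio, and 2 by the unadjusted t-test. For the processing and receptor genes the count of 2 was 0 and 1 with signals raised to 16 and 64, 0 without the trend, by the adjusted t-test and with the Xist covariate, 7 with array weights, 4 with a mean signal of at least 300, 8 by the unadjusted t-test, 15 by the ratio and 5 with the Gapdh ratio as a covariate. Leaving out 1 array gave 0 to 5 higher and 0 lower collagen genes, 0 to 2 fibrillar, 0 basement membrane, 0 to 2 cartilage and 1 to 4 processing and receptor genes.

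Signs turned only in genes that did not pass. Col13a1 had 0.11 with the Gapdh covariate and 0.85 without both arrays of high Gapdh ratio, where Col4a5 had -0.021 and Col6a3 0.059. Col1a1 had 0.57 with array weights and 1.93 with the Xist covariate. Col26a1 had -0.31, -0.32, -0.28 and -0.74 with array weights, the mean of probe sets, the ratio and the Xist covariate, and -0.31 to 0.28 with 1 array left out. Over 16 named genes, 274 of 343 gene and setting pairs kept direction and side of the threshold. Both settings built on the Gapdh ratio were chosen after seeing the data. The causes were not tested, save that a mean signal of at least 300 removes Col9a2. With replicate number as a block 4 collagen genes were higher and 0 lower, and no class count changed. Deviations of arrays with the same number correlated at 0.09, 0.03 and 0.03 over all probe sets, and those with different numbers at -0.096 to 0.07. These values cannot show whether arrays of the same number shared a batch. Not every array correlated best with its own number.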
